A study of Mus musculus with 12 samples.

Results

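AP-1 is a family of paired transcription factors, and the genes described here are its core members together with 3 immediate early genes that respond to the same signals. The 10 genes, Fos, Fosb, Fosl1, Fosl2, Jun, Junb, Jund, Egr1, Atf3 and Myc, were chosen by name among 22208 protein-coding genes on chromosomes 1 to 19 and X. The rule uses no measured value, but the genes were picked with earlier results of these data known. They were followed in C2C12, a cloned line of mouse muscle precursor cells of strain C3H origin. Growing myoblasts at passages 15 to 18 were kept in 10% serum and harvested near confluence. Myotubes, the fused muscle fibres of the dish, were obtained from the same line after about 5 days of serum withdrawal, and were freed from unfused cells by light trypsin treatment. All groups share the cell line, and no gene was silenced and no agent was added. In each cell type 6 histone marks were mapped by ChIP-seq (H3K4me1, H3K4me2, H3K4me3, H3K27ac, H3K27me3 and H3K36me3), with 1 library for each mark and cell type, 12 in all. The comparison is therefore between pairs of single libraries. Intervals of single genes and windows are 95% intervals for counting error alone, with no replicate check. Those of medians are 95% intervals from the ordered values of the 10 genes and show the spread among them. No p-value was computed. Growth state, serum and fusion changed together between the cell types and cannot be told apart.

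Proteins of the Fos group (Fos, Fosb, Fosl1, Fosl2) bind DNA only as pairs with a Jun protein (Jun, Junb, Jund), whereas Jun proteins can also pair among themselves. These pairs bind TGACTCA or TGAGTCA and turn on genes of growth, migration and matrix remodelling. The search below used the wider pattern TGANTCA, in which N is any base. Serum and stress induce the genes of Fos, Fosb, Jun, Junb, Egr1 and Atf3 within minutes through factors that are already bound at their promoters, among them SRF, which binds the CArG box, and CREB, which binds TGACG. In cultured muscle precursors Fos, Jun and Myc are known to counteract MyoD, the factor that drives differentiation. Of the marks, H3K4me3 and H3K27ac lie at the start of genes in use, H3K27ac and H3K4me1 lie at active distal elements, H3K36me3 covers transcribed bodies, and H3K27me3 is the repressive mark of Polycomb.

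The libraries held between 1858771 and 7033100 reads in myoblasts and between 3298694 and 6271899 in myotubes. The smallest was myoblast H3K27ac, in which 3 reads within 1 kb of a start site amount to 2.06-fold of the genome mean. In the myotube H3K4me1 library 8.59% of reads lay in its peaks, against 43.9% in the myoblast one. Its peaks had a median length of 117 bp against 933 bp and a mean enrichment of 16.6-fold against 13.4-fold, and the part of this difference in the H3K4me1 values below was not tested. The deposited myoblast peak lists of H3K27ac and H3K27me3 carried each other's name. The list named H3K27me3 held 36.4-fold H3K27ac and 0.804-fold H3K27me3, and the lists are used here by the mark their reads show. The labels of the cell types were compared with marker genes. All 8 myotube markers (Myog, Ckm, Acta1, Mylpf, Tnnt3, Tnni2, Myh3 and Tnnc2) had more than 2-fold higher promoter H3K27ac in myotubes, against 5.96% of all promoters tested. Of 6 myoblast markers, 4 (Myf5, Msc, Ccnd1 and Id3) were 2-fold lower there, against 40.9%. Relative to the median ratio of all promoters, 3 stayed 2-fold lower (Msc, Ccnd1 and Id3). Myf5, Myod1 and Cdh15 stood at 0.838, 0.909 and 0.931 of that median. None of 8 markers of blood, liver, nerve, epithelium and endothelium reached 20 reads in both H3K27ac libraries together. Among the latter Cdh1 alone had an interval above the genome mean, in myotubes, with 12 H3K4me3 reads (4.65-fold) and 14 H3K27ac reads (3.79-fold).

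The 10 genes are spread over 10 loci on 9 chromosomes of mm9. Fos lies at chr12:86814840-86818223 on the plus strand, and Fosb at chr7:19888070-19895394 on the minus strand. Fosl1 lies at chr19:5447703-5455945 (plus) and Fosl2 at chr5:32438845-32460204 (plus). Jun lies at chr4:94715725-94718913 (minus), Junb at chr8:87500811-87502617 (minus) and Jund at chr8:73221638-73224515 (plus). Atf3 lies at chr1:192994175-193007219 (minus) and Myc at chr15:61816946-61821929 (plus). Most are very short. Junb spans 1807 bp, Jund 2878 bp and Fos 3384 bp, whereas Fosl2 spans 21360 bp. Fos, Jun and Myc have no promoter of another protein-coding gene within 30 kb, and Fosl1 has 6. Genes on the other strand overlap Fosl1 (Ccdc85b), Jun (BC042782), Jund (Gm11175) and Egr1 (Gm17507), and the marks within the overlap cannot be assigned to either gene.

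The promoters of the 3 genes called higher for acetylation in myotubes are shown from 320 to 21 bases upstream of the start site, 5′ to 3′ on the strand of the gene, as read from NCBI build 37 (mm9). Capitals mark CArG boxes, TATAAA and TGACG on either strand, so that CGTCA is a match to the opposite strand.
Fos: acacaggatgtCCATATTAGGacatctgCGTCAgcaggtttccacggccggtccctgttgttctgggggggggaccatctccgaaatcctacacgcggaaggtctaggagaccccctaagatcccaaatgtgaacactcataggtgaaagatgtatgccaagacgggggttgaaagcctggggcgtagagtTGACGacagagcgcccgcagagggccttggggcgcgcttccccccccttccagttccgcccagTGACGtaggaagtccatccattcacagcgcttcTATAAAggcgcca
Fosb: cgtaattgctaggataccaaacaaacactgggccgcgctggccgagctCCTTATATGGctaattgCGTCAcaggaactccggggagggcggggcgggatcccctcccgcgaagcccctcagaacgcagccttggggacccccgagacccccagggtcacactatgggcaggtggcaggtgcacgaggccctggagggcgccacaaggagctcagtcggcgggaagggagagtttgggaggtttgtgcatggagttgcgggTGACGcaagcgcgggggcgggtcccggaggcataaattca
Junb: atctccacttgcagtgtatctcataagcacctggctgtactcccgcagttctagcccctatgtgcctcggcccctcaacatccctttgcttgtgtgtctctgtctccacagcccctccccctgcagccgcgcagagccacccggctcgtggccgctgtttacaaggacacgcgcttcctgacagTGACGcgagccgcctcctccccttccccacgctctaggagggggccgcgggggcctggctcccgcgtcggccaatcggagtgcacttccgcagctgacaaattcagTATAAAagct
A CArG box lay 309 to 300 bases upstream of Fos and 272 to 263 bases upstream of Fosb, in both cases followed within a few bases by CGTCA. Egr1 held 2 CArG boxes, 105 to 96 and 83 to 74 bases upstream, and no match was in the windows of the other 7 genes. CArG boxes occurred in 1.58% of the windows of all 22208 promoters. TGACG was found at 8 of the 10 genes, all but Fosl2 and Myc, and at 21.7% of all promoters. TATAAA lay 33 to 28 bases upstream of Fos, 30 to 25 bases upstream of Junb and 288 to 283 bases upstream of Fosl1, and in 14.1% of all promoters. TGACNTCA, which includes TGACG when N is G, was found at Jun, 45 to 38 bases upstream, and at Jund, against 7.49% of all promoters. TGANTCA, which includes the AP-1 sequences, was in none of the 10 windows and in 6.99% of all. The SP1 sequence GGGCGG was found at 9 (41.8% of all) and CCAAT at 5 (37.3% of all). All 10 promoters were rich in G and C, with a median of 60.3% over the 2 kb around the start site against 51.35% for all promoters.

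All 10 promoters carried H3K4me3, H3K4me2 and H3K27ac in both cell types, each far above the genome mean. In each case a peak of the corresponding list overlapped the stretch within 1 kb of the start site, by at least 1 bp. Levels are given as fold enrichment, the reads within 1 kb either side of the start site over the number expected from the mean of the library. For H3K4me3 the median of the 10 genes was 52.3-fold in myoblasts (interval 41.5 to 66.4) and 39.2-fold in myotubes (16.3 to 60.1). The median of all promoters with enough H3K4me3 reads to be tested was 31.8-fold and 27.2-fold. For H3K27ac the median was 93.9-fold in myoblasts (71.6 to 122) and 86.2-fold in myotubes (42.2 to 147), against 23.4-fold and 13.0-fold at the same promoters. Myc had the highest H3K4me3 in both cell types, 97.3-fold in myoblasts and 70.6-fold in myotubes, and Fosb the lowest, 13.8-fold and 15.9-fold. The range of H3K27ac ran from 14.4-fold at Fosb to 140-fold at Fosl2 in myoblasts, and from 6.50-fold at Fosl1 to 158-fold at Fos in myotubes. In the order of myotube H3K27ac, Fos, Junb and Fosl2 stood at 158-fold (145 to 171), 147-fold (135 to 160) and 147-fold (135 to 160) with overlapping intervals. Jund followed at 126-fold (114 to 138), with an interval that still overlapped those of Junb and Fosl2, and Jun lay below these at 95.8-fold (86.1 to 106).

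**Figure D1:**
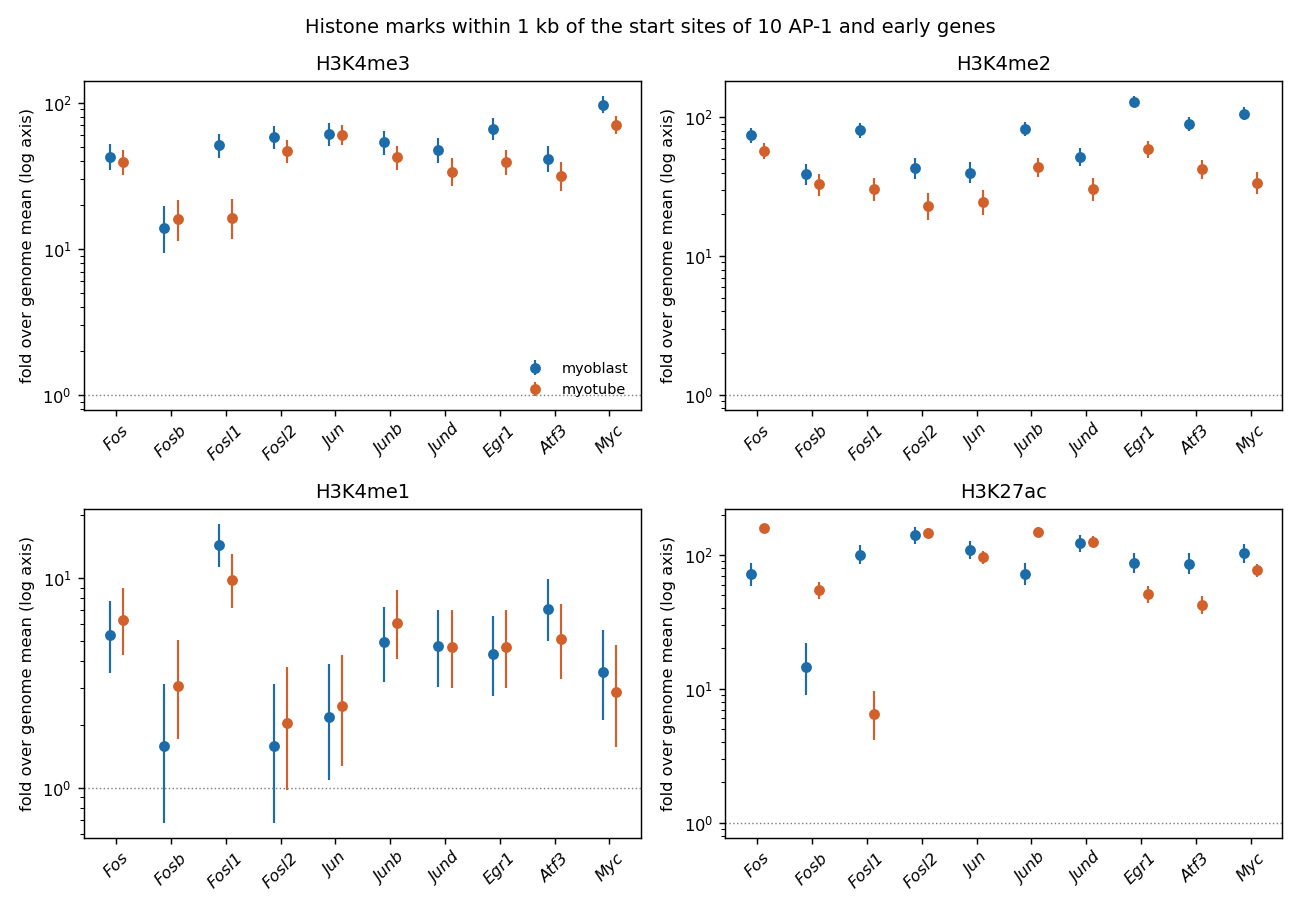
Fold enrichment over the genome mean (log axis) of H3K4me3, H3K4me2, H3K4me1 and H3K27ac within 1 kb of the start site of each of the 10 genes, in myoblasts (blue) and myotubes (orange), 1 library each. Bars are 95% Poisson intervals and the dotted line is the genome mean. The H3K27ac points of Fosl1 lie far apart, at 100.5-fold in myoblasts and 6.50-fold in myotubes, and those of Fosb lie apart in the opposite direction.

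At the promoters the Polycomb mark was at background. They held 2 to 10 H3K27me3 reads in myoblasts and 0 to 6 in myotubes. From the genome mean 5.49 and 3.92 were expected, and the interval of no promoter lay above the mean. The highest values were 1.82-fold at Myc in myoblasts and 1.53-fold at Atf3 in myotubes. For Jund, 0 reads in myotubes allow up to 0.765-fold at 3 reads, or 0.941-fold by the upper end of the exact interval. None of the 10 promoters lay in an H3K27me3 peak in either cell type. Too few reads were present for the ratio of this mark to be tested at any of them. The promoter of Fosl1, which lost most of its acetylation, held 4 reads in myoblasts and 3 in myotubes. In myotubes the body intervals of Fos (2.35-fold, 1.17 to 4.21), Fosl2 (1.63-fold, 1.26 to 2.08) and Atf3 (1.90-fold, 1.38 to 2.55) lay above the genome mean. In myoblasts that of Atf3 alone did (1.51-fold, 1.12 to 2.00). The Fosl2 body went from 40 to 65 reads, a ratio of 2.27 (1.51 to 3.46), or 1.94 relative to the median body. The distal windows of Atf3 stood at 2.47-fold and 2.19-fold in sum. H3K4me1 was modest at the promoters, with a median of 4.54-fold in myoblasts and 4.69-fold in myotubes, and was highest at Fosl1 in both.

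Between the cell types the 10 genes parted in opposite directions. Fosb, Fos and Junb had higher promoter H3K27ac in myotubes, and Fosl1 and Atf3 had lower. Ratios are the reads in myotubes over those in myoblasts, each per total reads of its library, and a gene was called when the ratio reached 2 or 0.5 and both libraries together held at least 20 reads. For H3K27ac 3 of 10 genes were called higher, against 5.96% of the 10830 promoters tested, and 2 lower, against 40.9%. The median ratio of all tested promoters was 0.577 (log2 -0.79), so a promoter of middle rank was lower in myotubes per total reads. The median of the 10 genes was 0.947 (interval 0.490 to 2.18), which is 1.64 times the median of all. Relative to the median promoter, the same 3 genes stood 2-fold higher (15.2% of all promoters) and Fosl1 alone 2-fold lower (13.6%). With 10 genes of such opposite behaviour the median describes few of them.

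H3K4me3 moved less. Of the 10 genes, 1 was called lower, Fosl1 with a ratio of 0.318, against 8.01% of all promoters, and it stayed so relative to the median (4.96% of all). The other 9 had ratios between 0.590 at Egr1 and 1.15 at Fosb, where the median of all promoters was 0.869. For H3K4me2, 4 genes were called lower (Fosl1, Myc, Egr1 and Atf3), against 36.6% of all promoters. Relative to the median promoter, whose ratio was 0.590, none of the 10 was 2-fold lower, and 9.58% of all were. For H3K4me1, 9 genes had enough reads and none was called in either direction, against 20.4% lower and 9.96% higher among all promoters. In the bodies H3K36me3 was called higher at 3 genes (Fosb, Myc and Fos; 7.99% of all bodies) and lower at 2 (Fosl1 and Jund; 7.57%), with a median ratio of 1.01 for all bodies. Fos and Fosb were thus higher in myotubes for promoter H3K27ac and for body H3K36me3, and Fosl1 was lower for both and for H3K4me3 too.

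**Figure D2:**
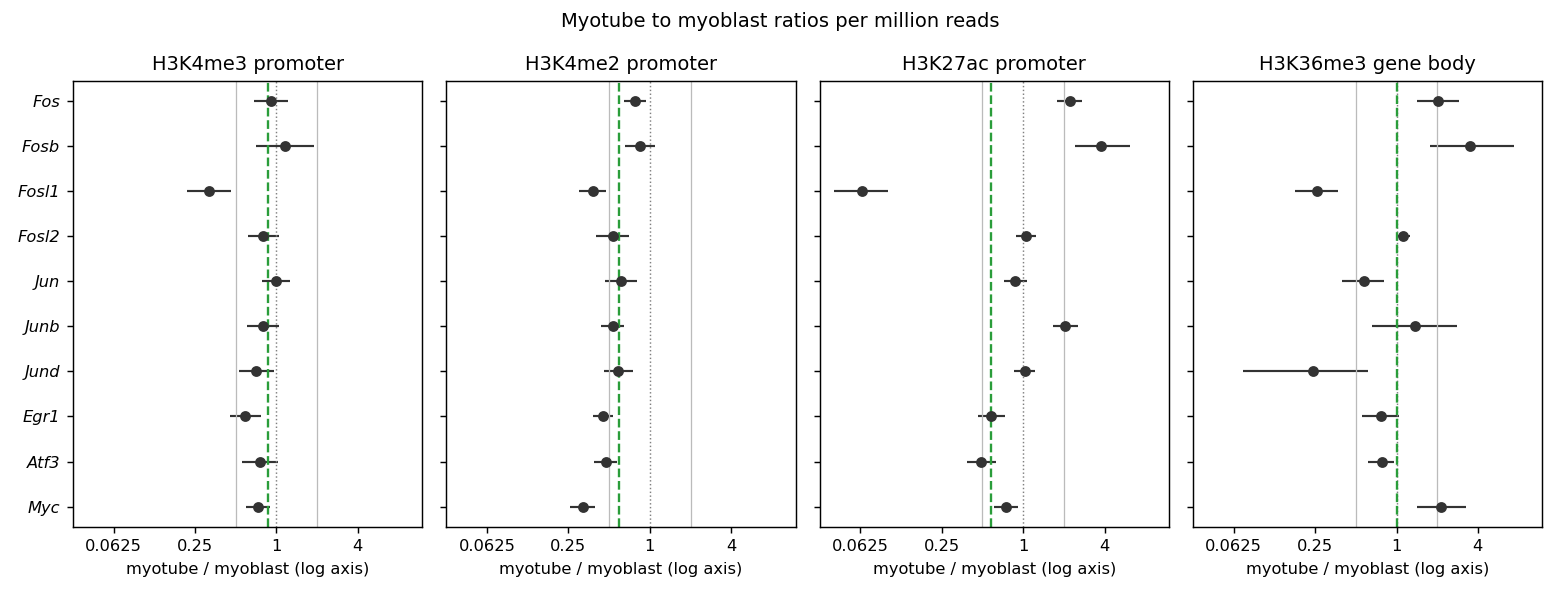
Ratio of myotube to myoblast reads per total reads (log axis) for promoter H3K4me3, promoter H3K4me2, promoter H3K27ac and gene body H3K36me3 at each of the 10 genes. Points are single pairs of libraries with 95% intervals, the green dashed line is the median of all promoters or bodies tested, the dotted line is 1, and the grey lines are the limits of 0.5 and 2. Fosl1 lies left of the lower limit in all 4 panels, and Fos and Fosb lie right of the upper limit for H3K27ac and H3K36me3.

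Distal acetylation within 30 kb of the genes was followed in windows of 1 kb that lay at least 1.5 kb from any start site and held at least 20 reads in both libraries together. For H3K27ac, 72 such windows lay around the 10 genes, of which 29 were called higher in myotubes and 13 lower. Among all 30882 windows of this kind near genes 45.1% were higher and 15.9% lower, with a median ratio of 1.67. The count over all 10 genes is thus near that background, but it was unevenly split between them. All 8 windows of Fosl1 were lower, 12 of 18 of Fos were higher and none lower, and 6 of 9 of Fosl2 were higher. At Fosb and Junb 5 of 10 were higher, with 1 lower at Fosb. Jund had 2 of 12 lower, Egr1 2 of 4 lower, and Jun a single window, which was higher. Atf3 and Myc had no window with enough reads. Summed over all distal windows of a gene, the ratio was above 2 for Fos alone (12.2% of 19427 genes) and below 0.5 for Fosl1 alone (6.62%). The filter counts reads before scaling and so favours windows high in the larger myotube library. With the larger library thinned to the size of the smaller, 16 of 46 windows were higher and 11 lower, against 33.97% and 22.2% of all. In that setting 7 of 13 of Fos were higher and 7 of 7 of Fosl1 were lower. Scaled by the median window, 15 of the 72 were higher and 15 lower, against 32.9% and 28.9% of all. All 8 of Fosl1 were then still lower, and 9 of 18 of Fos and 4 of 10 of Fosb higher, but only 1 of 9 of Fosl2 and 1 of 10 of Junb. For H3K4me1, 40 of 165 windows were lower (25.2% of all) and 21 higher (20.6%).

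Fos, the founding partner of the family, had the highest point value of promoter H3K27ac of the 10 genes in myotubes. The promoter held 104 H3K27ac reads in myoblasts (71.6-fold, interval 58.5 to 86.7) and 582 in myotubes (158-fold, 145 to 171), a ratio of 2.20 (1.78 to 2.74). The myotube value was above the myoblast one beyond counting error, and 94.7% of tested promoters had a lower ratio. The difference was larger upstream. The 1 kb upstream of the start site went from 47 to 328 reads, and the 1 kb downstream from 57 to 254. With 500 bp either side in place of 1 kb the ratio was 1.53. With the 2 kb downstream of the start site alone, and nothing upstream, it was 1.88. Both lie below the limit of 2. H3K4me3 stood at 93 and 101 reads, a ratio of 0.913 (0.682 to 1.22), and H3K4me2 at 249 and 214, a ratio of 0.776. The body, which begins 1 kb after the start site, held 60 H3K36me3 reads in myoblasts (9.15-fold) and 74 in myotubes (18.4-fold), a ratio of 2.01 (1.41 to 2.88), or 1.99 for the whole gene, at the limit of 2.

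The distal windows of Fos went from 255 H3K27ac reads in sum in myoblasts to 1545 in myotubes, a ratio of 2.38 (2.09 to 2.73). No promoter of another protein-coding gene lies in this stretch. Clusters of acetylated windows lay 18.3 and 11.3 kb upstream and 12 to 13 and 23 to 27 kb downstream in both cell types. The window 18.3 kb upstream held most, 49 reads in myoblasts (67.4-fold) and 217 in myotubes (117-fold), a ratio of 1.74 (1.27 to 2.43). The window 24.7 kb downstream held 38 and 187 reads, a ratio of 1.94 (1.36 to 2.82). A further cluster was seen almost only in myotubes. The window 26.3 kb upstream held 1 read in myoblasts and 69 in myotubes, a ratio of 27.1 with a wide interval of 4.71 to 1087, and the next window toward the gene held 0 and 23. H3K4me1 in the window 26.3 kb upstream was 19 and 32 reads, a ratio of 1.74 (0.956 to 3.25), so that it carried H3K4me1 in both cell types at 7.50-fold and 13.1-fold. Summed over all distal windows, H3K4me1 had a ratio of 1.35 (1.21 to 1.5).

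The middle 300 bases of the windows 18.3 and 26.3 kb upstream are shown on the plus strand of mm9, since they are the strongest distal window of Fos and the one with the largest rise once 1 read is added to each count. They lie at chr12:86796351-86796650 and chr12:86788351-86788650, outside annotated genes.
Fos, 18.3 kb upstream: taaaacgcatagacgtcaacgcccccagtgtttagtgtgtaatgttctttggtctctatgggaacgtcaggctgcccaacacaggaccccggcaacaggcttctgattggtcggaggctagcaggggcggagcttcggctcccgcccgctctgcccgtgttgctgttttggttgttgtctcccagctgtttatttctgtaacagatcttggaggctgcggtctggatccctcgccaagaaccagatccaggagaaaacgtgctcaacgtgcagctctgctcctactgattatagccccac
Fos, 26.3 kb upstream: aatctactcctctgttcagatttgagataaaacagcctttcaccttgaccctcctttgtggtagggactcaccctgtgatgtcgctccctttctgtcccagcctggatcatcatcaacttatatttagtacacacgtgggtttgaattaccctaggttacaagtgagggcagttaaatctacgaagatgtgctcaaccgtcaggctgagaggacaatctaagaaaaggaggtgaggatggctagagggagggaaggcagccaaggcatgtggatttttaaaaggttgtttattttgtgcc
Neither of the whole windows of 1 kb held TGANTCA. It occurred in 2 of the 18 acetylated windows of Fos, in 6 of the 8 of Fosl1, and in 38.6% of all windows tested. The other counts were 5 of 10 at Fosb, 2 of 9 at Fosl2, 0 of 1 at Jun, 3 of 10 at Junb and 6 of 12 at Jund. These shares are descriptions of letters, with few windows per gene that often touch each other.

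**Figure D3:**
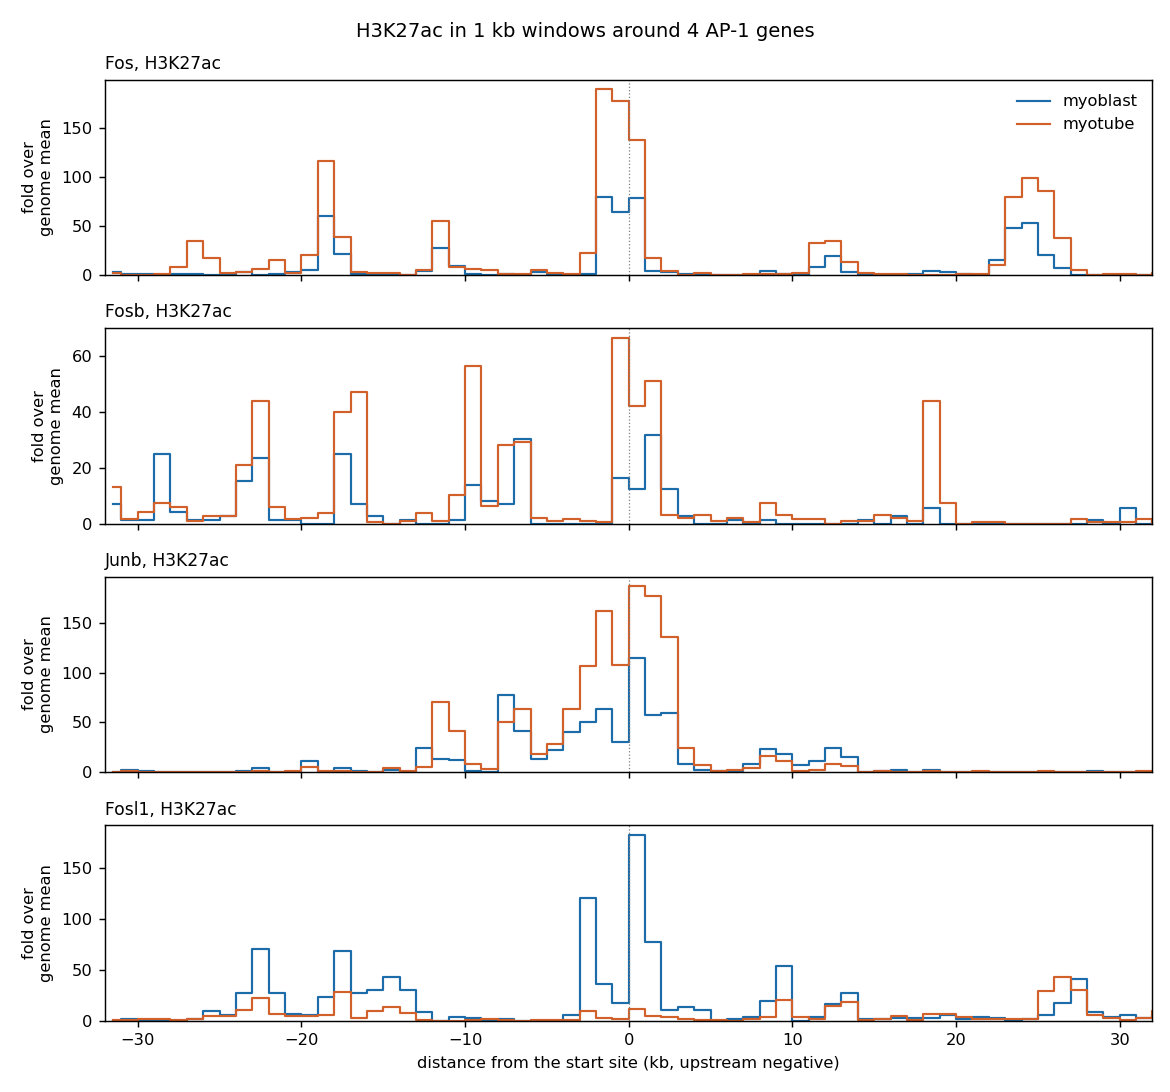
H3K27ac as fold over the genome mean in windows of 1 kb from 32 kb upstream to 32 kb downstream of the start site of Fos, Fosb, Junb and Fosl1, in myoblasts (blue) and myotubes (orange), with distance in kb along the direction of the gene and a separate vertical scale for each gene. At Fos the myotube line lies above the myoblast line at most clusters, and at Fosl1 the order is the opposite at the promoter and upstream of it.

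Fosb, whose protein is the nearest relative of Fos, had the largest ratio of the 10 genes from the lowest start. Its promoter held 21 H3K27ac reads in myoblasts (14.4-fold, 8.94 to 22.1) and 201 in myotubes (54.4-fold, 47.1 to 62.5), a ratio of 3.77 (2.40 to 6.22). Only the myoblast value is based on few reads. Even so the intervals of the levels are far apart, and 97.0% of tested promoters had a lower ratio. With the 2 kb downstream of the start site alone in place of 1 kb either side, the ratio was 2.11. H3K4me3 was the weakest of the 10 genes in both cell types, with 30 and 41 reads and a ratio of 1.15 (0.700 to 1.91). The body held 13 H3K36me3 reads in myoblasts, 0.748-fold and thus at the genome mean, and 28 in myotubes, 2.63-fold (1.74 to 3.79), a ratio of 3.51 (1.76 to 7.39). Upstream of Fosb the window with most H3K27ac, at 17.1 kb, went from 22 to 130 reads, a ratio of 2.32 (1.47 to 3.84). The window 10.1 kb upstream went from 7 to 93 reads, a ratio of 5.23 (2.44 to 13.4), and that 16.1 kb upstream from 1 to 20, a higher ratio of 7.87 with a wide interval of 1.26 to 326. One window, 28.1 kb upstream, was lower, with 11 and 10 reads and a ratio of 0.358 (0.136 to 0.927). On the other side, 18.9 kb downstream, the promoter of Rtn2, a muscle-expressed reticulon gene, rose from 4 to 95 reads, a ratio of 9.34 (3.53 to 35.0).

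Fosl2, which encodes Fra-2, was acetylated strongly in both cell types. The promoter held 203 and 542 reads, 140-fold (121 to 160) in myoblasts and 147-fold (135 to 160) in myotubes, a ratio of 1.05 (0.892 to 1.24). The levels overlap. Past the promoter, windows in its intron were higher in myotubes per total reads, but the median window near genes had a ratio of 1.67. The window 2.66 kb downstream, the one with most reads, went from 35 to 190 reads, a ratio of 2.14 (1.48 to 3.16). The window 3.66 kb downstream went from 6 to 106, a ratio of 6.95 (3.09 to 19.4), and was the only window of Fosl2 that stood 2-fold above the median window. With the 2 kb downstream of the start site alone in place of 1 kb either side, the promoter ratio of Fosl2 was 1.91. H3K4me3 was 126 and 120 reads at the promoter, a ratio of 0.801 (0.619 to 1.04). H3K36me3 in its long body, 714 and 492 reads, had a ratio of 1.12 (1.0 to 1.26).

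Fosl1, which encodes Fra-1, had the largest fall. Its promoter held 146 H3K27ac reads in myoblasts (100.5-fold, 84.8 to 118) and 24 in myotubes (6.50-fold, 4.16 to 9.67), although the myotube library is the larger, a ratio of 0.0647 (0.0401 to 0.100). Only 0.314% of tested promoters had a lower ratio. The remaining myotube signal was still above the genome mean. H3K4me3 went from 111 to 42 reads, 51.2-fold to 16.3-fold, a ratio of 0.318 (0.218 to 0.458). H3K4me2 went from 270 to 113 reads, a ratio of 0.378 (0.301 to 0.472). H3K4me1 at the promoter was 73 and 48 reads, a ratio of 0.679 (0.462 to 0.991). In the body H3K36me3 went from 220 reads (11.05-fold, 9.64 to 12.6) to 35 (2.87-fold, 2.00 to 3.99), a ratio of 0.259 (0.176 to 0.372), and where Ccdc85b overlaps the end of Fosl1 on the other strand the reads cannot be told apart. At the promoter, H3K36me3 was not lower, with 10 reads in both libraries and a ratio of 1.63 (0.609 to 4.37).

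The fall at Fosl1 extended upstream. A single distal window, 2.20 kb upstream, held 90 H3K27ac reads in myoblasts (124-fold) and 12 in myotubes (6.50-fold), a ratio of 0.0524 (0.0261 to 0.0962). The same window held the most H3K4me1 of the locus, with 154 and 43 reads and a ratio of 0.288 (0.201 to 0.407). In an intron the window 1.80 kb downstream went from 18 to 5 H3K27ac reads, a ratio of 0.109 (0.0317 to 0.305). From 14 to 18 kb upstream a run of 5 windows was lower by varying amounts, from 33 to 14 reads at 18.2 kb (ratio 0.167) to 43 and 51 reads at 17.2 kb (ratio 0.467). Over all distal windows H3K27ac went from 332 to 232 reads, a ratio of 0.275 (0.231 to 0.326), and H3K4me1 from 975 to 426, a ratio of 0.451 (0.402 to 0.506).

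Of the 6 neighbouring promoters of Fosl1, 5 had enough H3K4me3 reads, and the ratios of all 5 were higher than that of Fosl1. Fibp, 12.9 kb downstream, had 81 and 107 reads, a ratio of 1.11 (0.825 to 1.5). Ccdc85b, 9.85 kb downstream, had a ratio of 0.733 (0.511 to 1.05), and Efemp2 one of 0.543 (0.360 to 0.813). The paired promoters of Drap1 and AI837181, which overlap about 22.7 kb upstream, had ratios of 0.966 and 0.921. For Ctsw, a gene of cytotoxic lymphocytes, 0 and 5 H3K4me3 reads were too few to test. Acetylation at the neighbours was mixed. The H3K27ac ratio was 0.337 (0.239 to 0.475) at Drap1 and 0.421 (0.272 to 0.653) at Ccdc85b, but 0.750 (0.481 to 1.19) at Fibp and 1.25 (0.884 to 1.81) at Efemp2. The ratio of Fosl1 lay below the intervals of all these neighbours for H3K27ac. For H3K4me3 its interval overlapped that of Efemp2.

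**Figure D4:**
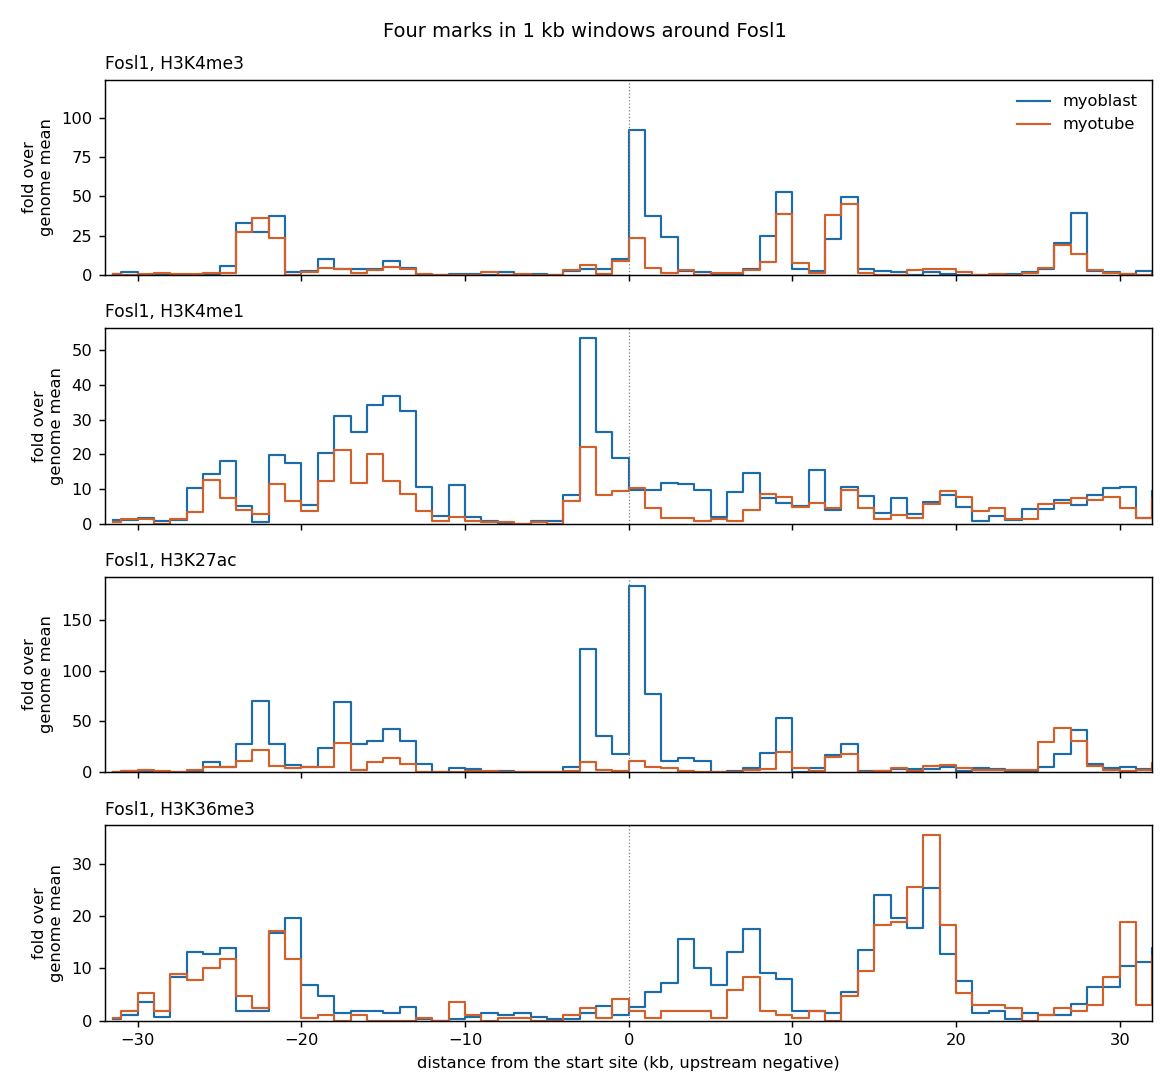
H3K4me3, H3K4me1, H3K27ac and H3K36me3 as fold over the genome mean in windows of 1 kb within 32 kb of the start site of Fosl1, in myoblasts (blue) and myotubes (orange), with distance in kb and a separate vertical scale for each mark. The myoblast line stands far above the myotube line for H3K27ac at the start site and 2.20 kb upstream. It also does so for H3K4me3 just past the start site and for H3K4me1 2.20 kb upstream. At the promoter the ratio was 0.679 for H3K4me1 and 1.63 for H3K36me3, the latter from 10 reads in each library. The H3K4me3 of the neighbouring promoter of Fibp 12.9 kb downstream had overlapping intervals, with 81 and 107 reads, and that of Efemp2 had 65 and 42 reads (ratio 0.543).

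Junb, a Jun protein that often restrains growth, was called higher at its promoter, as Fos was. Its promoter held 105 H3K27ac reads in myoblasts (72.2-fold, 59.1 to 87.5) and 544 in myotubes (147-fold, 135 to 160), a ratio of 2.04 (1.65 to 2.54). The levels do not overlap, but the ratio stands at the limit of 2, and with 1 read kept per position and strand it was 1.98. The gain was again larger upstream, from 22 to 199 reads, than downstream, from 83 to 345. The window 2.12 kb downstream, which overlaps an exon but lies mostly past the end of the gene, went from 34 to 274 reads. Its ratio was 3.17 (2.21 to 4.67). The window 1.88 kb upstream went from 34 to 247 reads, a ratio of 2.86 (1.99 to 4.22). Neither of them was 2-fold above the median window. The only one that was lay 4.12 kb downstream, with 2 and 26 reads and a ratio of 5.11 (1.28 to 44.5). At 6.88 kb upstream, 63 and 157 reads gave a ratio of 0.980 (0.727 to 1.33). H3K4me3 was 116 and 109 reads, a ratio of 0.790 (0.603 to 1.04). The neighbouring promoter of Hook2 had a ratio of 2.11 (1.40 to 3.28) and that of Prdx2 one of 0.615 (0.387 to 0.990), so the gain did not cover the whole locus.

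Jun, the main partner of Fos, had overlapping levels of promoter H3K27ac in the cell types. The promoter held 159 and 354 H3K27ac reads, 109-fold (93.1 to 128) and 95.8-fold (86.1 to 106), a ratio of 0.876 (0.724 to 1.06). With 500 bp either side the ratio was 1.27, and with the 2 kb downstream of the start site alone 0.644. Past the promoter, the body held 86 and 84 H3K27ac reads, 54.1-fold in myoblasts and 20.8-fold in myotubes, a ratio of 0.384 (0.281 to 0.525), and 6.33% of tested bodies had a lower ratio. H3K4me3 was 132 and 155 reads, a ratio of 0.988 (0.778 to 1.26). The gene body, which has a single exon, held 123 H3K36me3 reads in myoblasts (20.4-fold) and 43 in myotubes (11.7-fold), a ratio of 0.570 (0.393 to 0.813) that did not reach the limit of 0.5. The distal windows held 24 reads in myoblasts and 108 in myotubes in all, below and near the genome mean at 0.703-fold and 1.24-fold, and the single window tested, 2.59 kb upstream, had 4 and 22 reads.

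Jund, the Jun protein present in most resting cells, kept its promoter acetylation, with 178 and 464 reads, 122-fold (105 to 142) and 126-fold (114 to 138), a ratio of 1.03 (0.861 to 1.23). From the annotated 5′ end in place of the start site with most H3K4me3, the ratio was 1.39. H3K4me3 was 103 and 87 reads, a ratio of 0.710 (0.528 to 0.954). H3K36me3 over the body, here counted from the start site, was 34 reads in myoblasts (7.45-fold) and 5 in myotubes (1.79-fold). The ratio of 0.240 (0.0732 to 0.616) rests on few reads, and the body overlaps Gm11175. Upstream, the window 17.4 kb away went from 43 to 18 H3K27ac reads, a ratio of 0.165 (0.0894 to 0.292). The adjacent window at 16.4 kb, the strongest of the locus, had 68 and 88 reads, a ratio of 0.509 (0.367 to 0.709). Together the distal windows had a ratio of 0.842 (0.728 to 0.977).

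Egr1, a zinc finger factor induced together with Fos (chr18:35020861-35024638, plus strand), was lower in myotubes by about as much as the median promoter. It held 127 and 188 H3K27ac reads, 87.4-fold (72.9 to 104) and 50.9-fold (43.9 to 58.7), a ratio of 0.582 (0.462 to 0.735), which is 1.01 times the median of all promoters. H3K4me2 was the highest of the 10 genes in both cell types, with 435 and 218 reads and a ratio of 0.452 (0.383 to 0.533). H3K4me3 was 144 and 101 reads, a ratio of 0.590 (0.453 to 0.766). The window 1.64 kb downstream, in an exon, was lower for both H3K27ac, with 13 and 12 reads, and H3K4me1, with 37 and 9 reads. The body kept its H3K36me3, with 134 and 63 reads and a ratio of 0.767 (0.559 to 1.04).

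Atf3, a stress-induced partner of Jun, held 125 H3K27ac reads in myoblasts (86.0-fold, 71.6 to 102) and 156 in myotubes (42.2-fold, 35.9 to 49.4), a ratio of 0.491 (0.386 to 0.626). The levels do not overlap. Relative to the median promoter the ratio was 0.851, and 39.9% of tested promoters had a lower one. With reads extended to 250 bp it was 0.508, just past the limit, and with the 2 kb downstream of the start site alone 0.699. H3K4me3 was 90 and 81 reads, a ratio of 0.757 (0.554 to 1.03). The H3K36me3 of the body was 259 and 123 reads, a ratio of 0.774 (0.620 to 0.963). No distal window of Atf3 reached 20 H3K27ac reads, and the sum of its distal windows was at the genome mean in both cell types, 1.16-fold and 1.10-fold.

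Myc, the growth regulator, had the most H3K4me3 and no acetylated distal window within 30 kb. The promoter held 150 and 283 H3K27ac reads, 103-fold (87.4 to 121) and 76.6-fold (67.9 to 86.1), a ratio of 0.742 (0.607 to 0.911). This value depended on where the window was placed. It was 1.35 around the annotated 5′ end and 0.457 with the 2 kb downstream of the start site alone. In myoblasts 70.0% of the promoter's H3K27ac reads lay downstream of the start site, and in myotubes 47.0%. H3K4me3 was 211 and 182 reads, a ratio of 0.726 (0.592 to 0.889), and H3K4me2 356 and 126, a ratio of 0.319 (0.259 to 0.392), the lowest H3K4me2 ratio of the 10 genes. H3K4me1 was lower around the gene in 5 of 6 windows, with a sum of 302 and 168 reads and a ratio of 0.574 (0.473 to 0.696). The body H3K36me3 moved the other way, with 44 reads in myoblasts (6.84-fold) and 58 in myotubes (14.7-fold), a ratio of 2.15 (1.43 to 3.26), or 2.00, just under the limit of 2, for the whole gene from its start site.

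Over all 12 libraries, the promoters of Fos and Junb were each other's nearest among the 10 genes, at a distance of 1.83 on the log2 scale of fold enrichment. The protein-coding promoters nearest to Fos were those of Gm11031 (1.5), Nab2 (1.52) and Tmem194 (1.53), of which the last pair overlap on opposite strands and share most of their promoter reads, where the median distance of all promoters was 9.77. The H3K27ac ratios of Gm11031, Nab2 and Tmem194 were 0.840, 1.02 and 1.04, against 2.20 at Fos. Nab2 encodes a binding partner and repressor of Egr proteins. Those nearest to Fosl1 were Rps6ka4 (1.64), which encodes the kinase Msk2, Kif5c (1.65) and Cadm4 (1.82), with a median of 8.29. At Rps6ka4 H3K27ac went from 98 to 20 reads, at Kif5c from 116 to 34, and at Cadm4 from 131 to 18. Fosl1 and Fosb were the farthest pair of the 10 genes, at 6.90.

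The genes around AP-1 were taken as lists. Of 13 other bZIP genes whose products pair with AP-1 proteins, 10 had enough H3K27ac reads at the promoter, 1 was called lower and none higher, against 40.9% and 5.96% of all promoters. The lowest was Batf2, with 169 reads in both libraries and a ratio of 0.393 (0.316 to 0.490), and the highest Mafk, with 95 and 266 reads and a ratio of 1.10 (0.868 to 1.41). None stood 2-fold from the median promoter, where 13.6% of all promoters were 2-fold lower and 15.2% higher. Batf3 held 0 and 3 H3K27ac reads and had H3K27me3 above 3-fold in both cell types, 4.19-fold and 3.32-fold.

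Of 32 other immediate early genes, 30 were tested, 8 were called lower and 1 higher, where 40.9% and 5.96% of all promoters were. Their median ratio was 0.672. Relative to the median promoter 1 was 2-fold lower and 6 were higher, against 13.6% and 15.2% of all, where 6 of 30 is near the background share. The highest was Gadd45b, a growth arrest gene, which went from 66 to 397 reads, a ratio of 2.37 (1.82 to 3.12). The other 5 that were higher relative to the median were Egr2, Per1, Btg2, Zfp36 and Klf6, with ratios between 1.25 and 1.66. The lowest was Ctgf, a matrix signalling gene, which went from 204 to 62 reads, a ratio of 0.120 (0.0885 to 0.160). Egr4 was without H3K27ac, with 2 reads in each library, and carried H3K27me3 at 5.47-fold in myoblasts and 3.32-fold in myotubes. It was the only gene among the 32 immediate early genes and 10 genes of the Myc network above 3-fold.

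The list of 17 upstream regulators held kinases, SRF and its cofactors, Creb1, Nab1 and Nab2. All were tested, 5 were called lower and none higher, against 40.9% and 5.96% of all promoters, with a median ratio of 0.590. Elk1, a cofactor of SRF, was the lowest, with 24 and 13 reads and a ratio of 0.213 (0.0996 to 0.435). In the Myc network 9 of 10 genes were tested, and 2 were lower and none higher, against the same shares of all promoters. Mxd3, a Max partner expressed in dividing cells, went from 72 to 18 reads, a ratio of 0.0983 (0.0552 to 0.167), and Mxd4 from 30 to 119, a ratio of 1.56 (1.04 to 2.41). Of the 9 tested, Mxd3 alone stood 2-fold below the median promoter, against 13.6% of all promoters. Mxd1 and Mxd4 stood 2-fold above it, against 15.2% of all. With 9 genes these counts are near those shares.

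Among 12 known targets of AP-1, 8 had enough reads and 6 of these were called lower in myotubes, with none higher, against 40.9% of all promoters. Their median ratio was 0.318, or 0.551 of the median promoter. Relative to it 4 were 2-fold lower (Ccnd1, Plaur, Plau and Hmga1), against 13.6% of all promoters. The 6 myoblast markers had a similar median ratio of 0.329, or 0.571 of the median promoter. Ccnd1, which encodes cyclin D1, went from 65 to 8 reads, a ratio of 0.0484 (0.0201 to 0.101). Plaur, the receptor of urokinase, went from 100 to 24, a ratio of 0.0944 (0.0578 to 0.149). Cd44, a receptor of the matrix, had a ratio of 0.374. Timp1, an inhibitor of matrix proteases, had the highest with 56 and 138 reads, a ratio of 0.969 (0.706 to 1.35). For H3K4me3, 6 of 9 tested targets were lower, against 8.01% of all promoters. Ccnd1 is also on the list of myoblast markers, and which factor acts on these promoters was not tested.

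**Figure D5:**
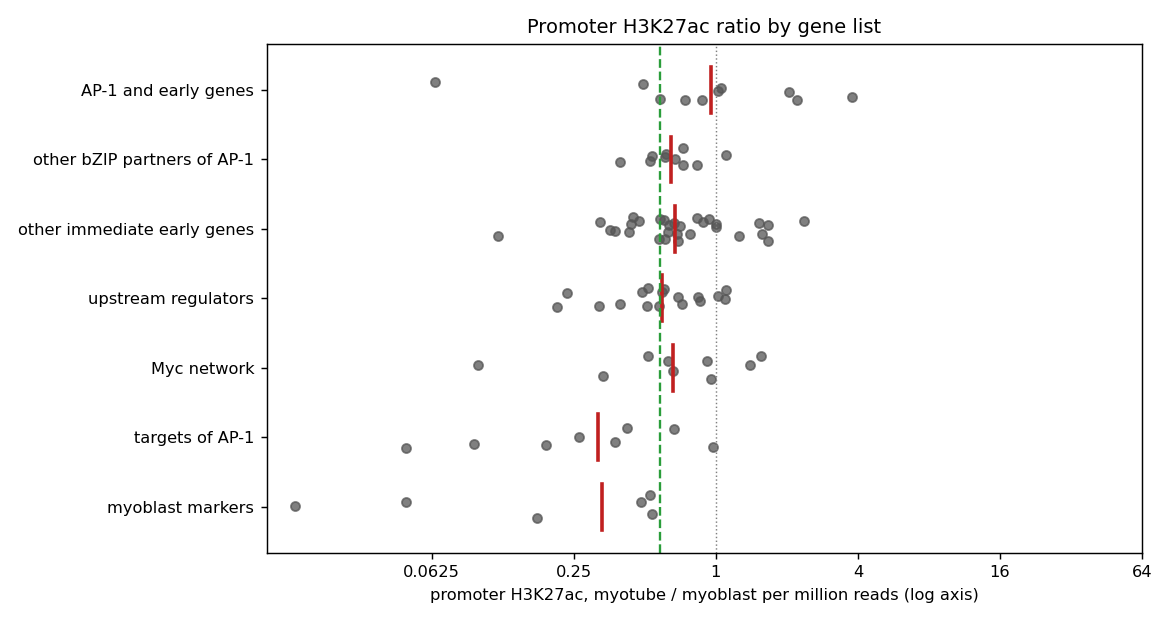
Ratio of myotube to myoblast promoter H3K27ac per total reads (log axis) for every gene with at least 20 reads, by list. Each point is a gene, red bars are the medians of the lists, the green dashed line is the median of all promoters (0.577) and the dotted line is 1. The points of the 10 AP-1 and early genes spread from 0.0647 to 3.77, and the targets of AP-1 have a lower median (0.318) than the other lists of the pathway. The median of the myoblast markers is close to that of the targets, at 0.329.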

How the data were processed

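ChIP-seq of 6 histone marks in C2C12 myoblasts and myotubes was analysed, 1 library each, with no input library used here. Per the labels, the submitters' processing notes and the study's methods, the authors aligned reads of 34 bp to mm9 with Mosaik 1.0.1384, kept unique alignments and listed each as a count of 1. The authors' peak files hold MACS scores, whose settings are not given in the sources used here. Reads on chromosomes 1 to 19 and X were extended to 150 bp and their midpoints counted (Python 3.11.15, numpy 2.4.6, scipy 1.17.1). Extension and unique alignment affect narrow windows and repeats. Genes were from GENCODE M1, each with the start site that held most H3K4me3 reads. Gene bodies began 1 kb after the start site. Where the gene ended less than 2 kb past the start site, as for Junb and Jund, they began at it. Intervals were exact Poisson for counts, exact conditional binomial for ratios and order-statistic for medians, at 95%. Medians of the 10 genes added 1 read to each count, and a count of 0 was given a limit of 3 reads. Likeness was the Euclidean distance of log2 fold enrichment with 1 read added, over 12 libraries, leaving out promoters within 10 kb of the genes. Sequences were read from NCBI build 37. The code was tested on simulated data.

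The members and the gene lists were chosen with earlier results of these data known. Named were all 10 genes in each comparison, from each further list the highest and lowest H3K27ac ratio, early and Myc network genes with H3K27me3 above 3-fold, for each gene the distal window with most H3K27ac reads and the largest rise and fall (ranked with 1 read added to each count), and the 3 nearest profiles to Fos and Fosl1. Further genes named from the lists and neighbours were chosen after their values were seen. A few items that fall under these rules are not reported here. Alternatives changed 1 choice at a time.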

Additional observations from a re-analysis of the deposited data

How the results depend on the processing

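No paired analysis was possible because each mark and cell type had 1 library, and no library could be left out. Of 146 alternatives to the medians and counts, 122 kept the median within its interval or the count within 1.5 times. The interval of a median shows the spread among the 10 genes and is not one of counting error. The main median ratios lay between 0.533 (promoter H3K4me2) and 1.13 (body H3K27me3), inside the limits of 0.5 and 2. No direction was thus called for a median, and these alternatives could not test whether one turned. Scaling by the median promoter gave median ratios of 0.904 for H3K4me2 and 1.28 for H3K4me1, and scaling by reads outside peaks gave 0.343 for H3K4me2. With the 200 kb around each gene as background, the median levels in myoblasts and myotubes were 17.9 and 11.8 (H3K4me3), 22.9 and 11.7 (H3K4me2), 1.27 and 1.78 (H3K4me1) and 17.4 and 15.2 (H3K27ac), and 0.958 for myotube H3K36me3; the cause was not tested. The called H3K27ac windows were 6 lower and 17 higher with at least 40 reads, 8 lower with centres over 3 kb from any start site, 15 higher when scaled by the median window, and 16 higher with the larger library thinned, a setting added after the data were seen. For H3K4me1 they were 18 lower and 5 higher with at least 40 reads, 24 lower over 3 kb away and 12 higher in windows of 500 bp. Under the stricter limits fewer windows were tested. With peaks of a score of at least 100, 1 gene kept a myotube H3K4me1 peak, and with the myoblast lists as deposited 0 genes had an H3K27ac peak and 10 an H3K27me3 peak.

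Of the promoter H3K27ac calls, that of Fosl1 (0.0323 to 0.112) and that of Fosb (2.11 to 6.53) held under every alternative run. That of Fos was lost with 500 bp either side (1.53) and with 2 kb downstream (1.88). The latter setting counts the 2 kb downstream of the start site alone and leaves out the 1 kb upstream. That of Junb was lost with 500 bp either side (1.66), 1 read per position and strand (1.98), thinning (1.97) and 5 reads added (1.96), and that of Atf3 with 2 kb downstream (0.699), reads extended to 250 bp (0.508) and the median promoter as scale (0.851). With 2 kb downstream Myc (0.457) and Egr1 (0.483) were called lower. Depth limits the windows of myoblast H3K27ac most, the smallest library.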

Other observations

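Other promoters near the 10 genes held values outside the comparisons above. Pde4c, 25.1 kb downstream of Jund, went from 5 to 61 H3K27ac reads, a ratio of 4.8 (1.95 to 15.3), while Lsm4, 25.5 kb upstream, had 103 and 358 reads and a ratio of 1.37 (1.10 to 1.72). A window 13.6 kb downstream of Jund held 2 H3K4me1 reads in myoblasts and 39 in myotubes, a ratio of 20.1 (5.21 to 172), while the window next to it, 12.6 kb downstream, held 4 and 18 H3K27ac reads, a ratio of 1.77 (0.583 to 7.19). The intron of Fosb 1.89 kb downstream of its start site had H3K4me1 of 37 and 9 reads, a ratio of 0.251 (0.107 to 0.530), while H3K27ac there was 21 and 79 reads, a ratio of 1.48 (0.905 to 2.52). The window 22.7 kb downstream of Fos likewise had lower H3K4me1, with 47 and 19 reads and a ratio of 0.417 (0.231 to 0.725), beside H3K27ac of 18 and 46 reads and a ratio of 1.01 (0.572 to 1.84).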
